A study of Mus musculus with 8 samples.

Results

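The genes described here are 10 genes of the AP-1 and immediate early response, Fos, Fosb, Fosl2, Jun, Junb, Jund, Atf3, Egr1, Ier2 and Dusp1, out of 12823 rows of a count table of mouse leukemia RNA. They were taken by name and were chosen by their measured levels per library, it being already known that 1 library of newly generated AML cells was high in Fos and Fosb. The height of these genes in that library is therefore given as a description, with no p-value. All 10 names were present, and all 10 passed the filter on low counts that left 12494 tested genes. Both groups of libraries came from mouse bone marrow cells into which the fusion oncogene MLL-AF9 had been introduced by a retrovirus that also carries GFP. New AML cells (4 libraries) were GFP+ cells that gave rise to leukemia in sublethally irradiated recipients about 2 months after transplantation. Aggressive AML cells (4 libraries) descend from some of the new AML cells through 5 serial transplantations in non-irradiated mice. Each library was made from mRNA that was purified with poly-T beads out of the total RNA of sorted GFP+ cells. No untransformed marrow and no leukemia of another oncogene was compared, so a difference between the groups is one between stages of MLL-AF9 leukemia. Whether all libraries trace to 1 leukemia is not stated. The groups also differed in irradiation of the recipients and in when the cells were obtained. Neither can be told apart from the stage of the leukemia. The mice were male and 8 to 12 weeks old. The labels call the 4 libraries of a group biological replicates but do not say whether each came from a separate mouse, and if they did not, the p-values measure only the spread between these samples, which may be technical.

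AP-1 is a dimer of a Fos family protein (Fos, Fosb, Fosl1 or Fosl2) and a Jun family protein (Jun, Junb or Jund), both of the basic leucine zipper (bZIP) class. Immediate early genes such as Fos, Fosb, Egr1, Ier2 and Dusp1 are transcribed within minutes of a growth factor, cytokine or stress signal, without new protein synthesis, largely through the MAP kinases ERK, JNK and p38, and their mRNAs are short-lived. Fosl2 and Jund are the more steadily expressed family members, and Dusp1 is a phosphatase that switches the MAP kinases off again. In myeloid cells AP-1 factors take part in differentiation and in inflammatory gene expression.

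The promoters of Fos, Jun and Dusp1 are shown because these genes were among those that stood highest in a single library, and because their windows hold known elements of signal-induced transcription. The windows are from RefSeq on the build GRCm38.p6 and end at the base before the transcription start. They are written 5′ to 3′ along the gene, and for Fos, Jun and Dusp1 bases that lie in an annotated transcript were left off. Capitals mark TGACG on either strand, the half-site of the cAMP response element bound by CREB and ATF proteins, and TGACATCA, the AP-1-like element of the Jun promoter. The window of Fos is chr12:85473640-85473889 on the plus strand, that of Jun is chr4:95052223-95052472 on the minus strand, and that of Dusp1 is chr17:26508520-26508722 on the minus strand. For Fosb only the 21 bases around its match, chr7:19310093-19310113 on the minus strand, are given. They lie before the start used by the promoter table but within the RefSeq span of the gene, which reaches to 19310118.
Fos: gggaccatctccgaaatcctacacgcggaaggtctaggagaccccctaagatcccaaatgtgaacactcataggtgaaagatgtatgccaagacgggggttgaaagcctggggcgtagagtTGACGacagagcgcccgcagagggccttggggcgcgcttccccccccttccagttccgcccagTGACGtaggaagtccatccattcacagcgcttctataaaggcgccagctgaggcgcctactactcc
Jun: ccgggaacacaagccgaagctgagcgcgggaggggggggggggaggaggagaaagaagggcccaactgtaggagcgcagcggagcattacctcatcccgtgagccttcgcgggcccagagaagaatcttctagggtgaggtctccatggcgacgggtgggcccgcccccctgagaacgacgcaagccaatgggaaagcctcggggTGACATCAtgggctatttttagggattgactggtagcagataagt
Dusp1: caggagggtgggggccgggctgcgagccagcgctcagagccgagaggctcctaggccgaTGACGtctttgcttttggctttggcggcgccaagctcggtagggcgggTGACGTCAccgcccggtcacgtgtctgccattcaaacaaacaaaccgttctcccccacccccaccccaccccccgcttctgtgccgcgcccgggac
Fosb: gttgcgggTGACGcaagcgcg

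The window of Fos holds TGACG at 129 and at 66 bases before the start, and a TATAAA box at 33 bases. Fosb holds TGACG at 60 bases before the start of its table entry, which is downstream of the outermost RefSeq start. In Dusp1 the half-site lies at 191 bases and on both strands within the full element TGACGTCA at 143 bases. Jun holds no TGACG in these 250 bases and has TGACATCA at 45 bases, a motif that was searched after its window had been read. Of the members not printed, Junb has TGACG at 106 bases and Atf3 at 7 bases on the minus strand, and the windows of Fosl2 and Jund do not hold these letters. The search covered whole windows, bases in annotated transcripts included. Under the trimming used for the printed windows, the Atf3 match would have been left off and 0 bases of the Fosl2 window kept. The absence in Fosl2 is therefore not a statement about sequence before every annotated start. Among 32851 mouse promoter windows of 250 bases, 17.8% hold TGACG, 1.55% hold TGACGTCA, 2.93% hold TGACATCA and 12.4% hold TATAAA. The AP-1 site TGACTCA (4.46% of promoters) and the CArG box bound by SRF (1.47%) occur in none of the 8 member windows that were searched. Bases further than 250 from the start were not searched, so a gene may carry either element outside its window. The table used has no entry for Ier2, and Egr1 was not searched. These matches are descriptions of letters and do not show binding in these cells.

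The total count per library ranged from 7805544 to 9697777, so that 1 count is worth 0.103 to 0.128 CPM (the unit used throughout, the count of a gene scaled to the total of its library). All pairs of replicates differed by more than sampling noise. The table shows RNA of a leukemia of this kind, with Hoxa9 (301 CPM in new and 322 in aggressive AML), Meis1 (100.4 and 138) and Mpo (2400 and 2092) in every library. New AML replicate 3 stood apart in the genes described below. In bulk RNA, fewer cells of a type and less RNA per cell cannot be told apart.

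Fos, the founding member of its family, was counted at 32.2, 66.5, 231 and 41.1 CPM in new AML replicates 1 to 4 and at 51.6, 60.5, 25.3 and 31.3 CPM in aggressive AML replicates 1 to 4. Replicate 3 of new AML was alone above all others, and the remaining 7 libraries of the groups overlapped throughout. Fosb, a paralog that is likewise induced by signals, was at 5.13, 18.9, 213 and 5.57 CPM in new AML and at 45.8, 56.7, 20.6 and 16.0 CPM in aggressive AML. Here too replicate 3 was far above the rest, but the other 3 new AML libraries lay at or below the lower aggressive libraries, with an overlap only between new AML replicate 2 and aggressive AML replicate 4. Fosl2, by contrast, was at 115.6, 135, 109 and 129 CPM in new AML and at 71.7, 62.7, 61.6 and 75.7 CPM in aggressive AML. All 4 new AML libraries were above all 4 aggressive AML libraries, and replicate 3 was the lowest of its group.

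Among the Jun family, Jun itself was at 188, 207, 445 and 115 CPM in new AML and at 185, 211, 142 and 149 CPM in aggressive AML. Apart from the high replicate 3 the groups covered overlapping ranges. Junb, which can restrain Jun activity, was at 78.2, 81.0, 96.7 and 66.0 CPM in new AML and at 82.9, 106.3, 56.0 and 57.4 CPM in aggressive AML. Its highest library was an aggressive one, and the groups overlapped. Jund was at 102.5, 104, 205 and 81.2 CPM in new AML and at 140, 151, 122 and 105 CPM in aggressive AML. Without replicate 3 the highest new AML library lay just under the lowest aggressive library.

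Atf3, a stress-induced bZIP factor, was close to the detection limit, with 1, 3, 22 and 3 counts in new AML and 11, 11, 9 and 10 counts in aggressive AML. The 22 counts of new AML replicate 3 were the highest of the 8 libraries, and the other 3 new AML libraries were below every aggressive library. Dusp1 was at 14.7, 17.7, 74.7 and 14.4 CPM in new AML and at 35.2, 45.5, 27.0 and 21.9 CPM in aggressive AML, an arrangement like that of Atf3. Egr1, a zinc finger factor of the same early response, was low, at 11.5, 17.2, 22.9 and 10.4 CPM in new AML and at 17.1, 22.4, 13.6 and 6.602 CPM in aggressive AML, with the groups overlapping. Ier2 was at 133, 145, 179 and 132 CPM in new AML and at 205, 213, 152 and 132 CPM in aggressive AML, where replicates 1 and 2 were above and replicates 3 and 4 within the range of new AML.

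**Figure D1:**
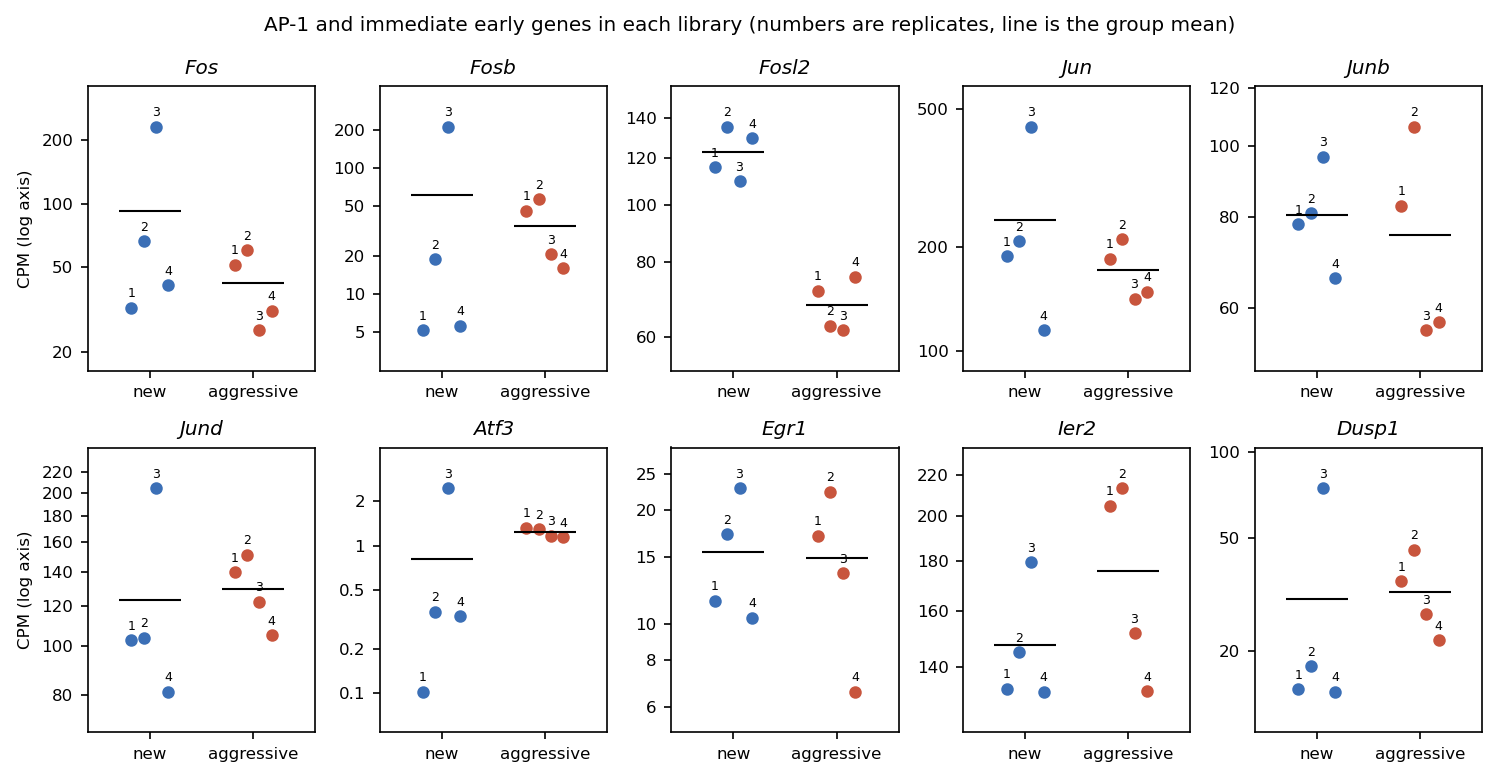
Level of each gene in the 8 libraries, in CPM on a log axis whose range differs between panels. Points are libraries, numbered by replicate, with new AML in blue and aggressive AML in red, and horizontal lines are group means. New AML replicate 3 is the highest point for 7 of the 10 genes, and Fosl2 separates all 4 new AML from all 4 aggressive AML libraries.

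Relative to the mean of the other 3 new AML libraries, replicate 3 held 21.6 times as much Fosb, 4.95 times as much Fos and 4.79 times as much Dusp1. For Atf3, 22 counts against 7 in the other 3 libraries together gave a ratio of 9.51 per library size. The exact 95% interval of this ratio, from 3.92 to 26.4, covers counting error only. It takes no account of the choice of this library for its height and is no test of that height. Jun (2.62 times) and Jund (2.14 times) were also high there, Egr1 (1.75 times), Ier2 (1.31 times) and Junb (1.29 times) less so, and Fosl2 was at 0.864 times. The replicate was the highest of the 8 libraries for 7 of the 10 genes, as it was for 11.3% of all tested genes. It reached at least 2 times the other new AML libraries, on the scale of CPM + 1, for 6 of the 10, as it did for 0.344% of tested genes. Among 9230 genes with at least 10 CPM in this library, ranked by the log2 gap to the highest of the other 7 libraries, Fosb stood at rank 6, Fos at rank 9, Jun at rank 17, Dusp1 at rank 32 and Jund at rank 55. These genes were chosen for their height in this library, and the ranks are descriptions.

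A smaller ordering ran through the other libraries. In aggressive AML, replicates 1 and 2 were both above replicates 3 and 4 for 9 of the 10 genes, the exception being Fosl2, whereas 17.7% of tested genes showed this order. In new AML, replicate 2 was above replicates 1 and 4 for all 10 genes and for 28.3% of tested genes. For Atf3 the order in aggressive AML rests on 11, 11, 9 and 10 counts. Both orders were read from the values themselves, were not planned and are descriptions. The labels record no batch that could be set beside them.

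**Figure D2:**
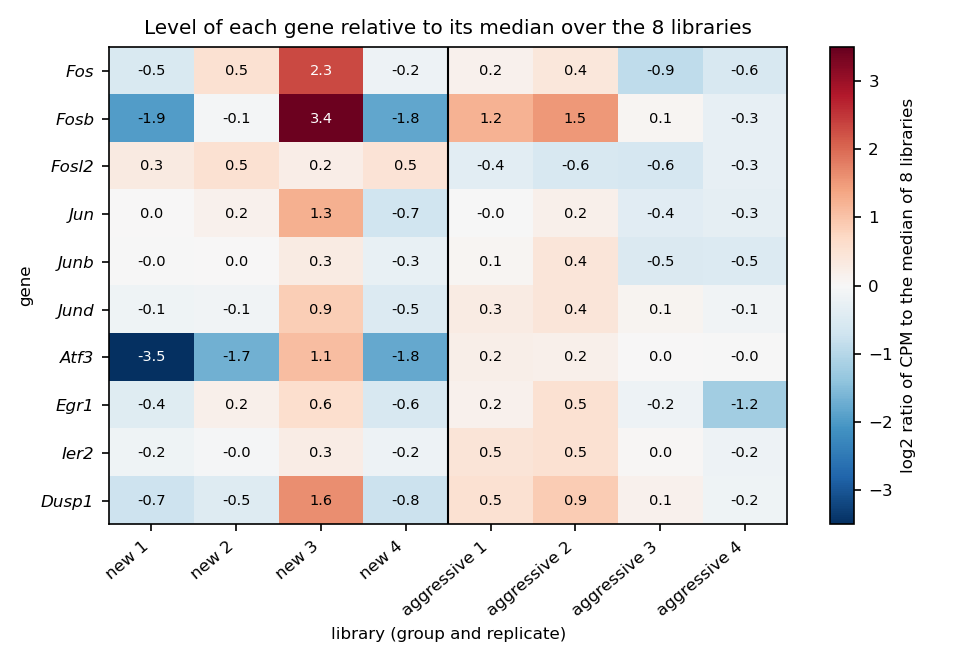
Log2 ratio of each gene's CPM to its own median over the 8 libraries, with genes as rows, libraries as columns and new AML left of the line. New AML replicate 3 carries the highest values, up to 3.4 for Fosb, and aggressive AML replicates 1 and 2 are above replicates 3 and 4 in every row but that of Fosl2.

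The comparison of new with aggressive AML asked which of these genes differ after serial transplantation. With all 8 libraries, Fosl2 was lower in aggressive AML and was the only member past the test among the 8 other than Fos and Fosb. Its mean was 122.4 ± 11.9 CPM (SD, n = 4) in new AML and 67.9 ± 6.89 CPM (SD, n = 4) in aggressive AML, which gave -0.85 on the log2 scale (SE 0.10, adjusted p = 2.72e-05, edgeR quasi-likelihood test with Benjamini-Hochberg adjustment over all tested genes). That is 1.80 times as much Fosl2 mRNA in new AML. The call held in all 16 alternative settings, with log2 fold changes between -0.90 and -0.80 and adjusted p between 4.56e-14 and 0.000196. Of all tested genes, 18.4% were called in this comparison, 8.15% higher and 10.2% lower in aggressive AML, so that 1 call among 8 genes is not above the background. Groups without overlap were found for 1 member, Fosl2, and for 21.8% of tested genes.

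For the other 7 genes the 8-library difference did not pass the test. Log2 fold changes of aggressive over new AML were -0.48 (SE 0.28, adjusted p = 0.260) for Jun, -0.09 (SE 0.17, adjusted p = 0.760) for Junb, 0.07 (SE 0.21, adjusted p = 0.840) for Jund and 0.60 (SE 0.64, adjusted p = 0.551) for Atf3. They were -0.05 (SE 0.30, adjusted p = 0.923) for Egr1, 0.25 (SE 0.14, adjusted p = 0.225) for Ier2 and 0.09 (SE 0.43, adjusted p = 0.903) for Dusp1. The large standard error of Dusp1 goes with the 1 high library of new AML, being 0.43 with it and 0.21 without it. That of Atf3, a gene with 1 to 22 counts per library, was 0.64 with it and still 0.54 without it. For Fos and Fosb, which chose the library, means are given without a test, here and with fewer libraries. Fos was at 92.6 ± 93.2 CPM (SD, n = 4) in new AML and 42.1 ± 16.6 CPM (SD, n = 4) in aggressive AML, and Fosb at 60.7 ± 102 CPM (SD, n = 4) and 34.8 ± 19.6 CPM (SD, n = 4). The SD of new AML exceeds its mean for both genes.

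The values were also compared without new AML replicate 3. This library was left out because of its high Fos and Fosb, which lowers the new AML means of the genes that were high in it by construction. The remaining new AML libraries held Fosb at 9.87 ± 7.83 CPM (SD, n = 3) against 34.8 ± 19.6 CPM (SD, n = 4) in aggressive AML, with a fitted log2 fold change of 1.84 (SE 0.47). Fos was at 46.6 ± 17.8 CPM (SD, n = 3) in new AML, with a fitted log2 fold change of -0.14 (SE 0.27). Dusp1 was called higher in aggressive AML, at 32.4 ± 10.3 CPM (SD, n = 4) against 15.6 ± 1.85 CPM (SD, n = 3), and its log2 difference was 1.06 (SE 0.21, adjusted p = 0.00376). Jund was called higher by 0.43 on the log2 scale (SE 0.12, adjusted p = 0.0265). Atf3 had 41 counts in aggressive AML and 7 in the remaining new AML libraries, a ratio of 4.77 per library size (exact 95% interval 2.12 to 12.6, counting error only). It passed the low-count filter through its aggressive libraries and replicate 3 alone, and its call was therefore not read.

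Without that library, Jun (0.01, SE 0.17, adjusted p = 0.969), Junb (0.01, SE 0.18, adjusted p = 0.972), Egr1 (0.20, SE 0.31, adjusted p = 0.690) and Ier2 (0.36, SE 0.14, adjusted p = 0.0868) were not called, and Fosl2 was again lower in aggressive AML (-0.90, adjusted p = 3.19e-05). Of the 7 genes other than Fos, Fosb and Atf3, 2 were thus called higher and 1 lower. Of all tested genes 18.7% were called without that library, 8.50% higher and 10.2% lower, and nothing is read from the comparison, because the omitted library was chosen for height in genes of this set. Groups without overlap were found for 4 of the 10, Fosl2, Jund, Atf3 and Dusp1, and for 30.5% of tested genes, which is likewise a description. The calls of Dusp1 and Jund rest on the omission, since over the 16 alternative settings their adjusted p ranged from 0.00376 to 0.955 and from 0.0265 to 0.998.

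**Figure D3:**
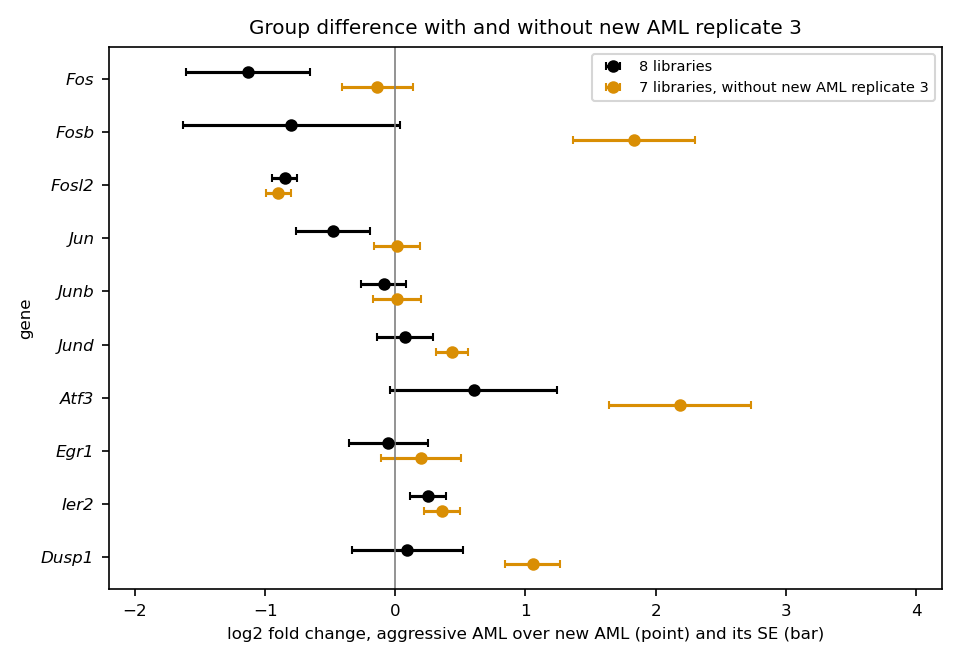
Log2 fold change of aggressive over new AML for each gene (points) with its SE (bars), from all 8 libraries in black and from 7 libraries without new AML replicate 3 in orange. Fosb moves from -0.80 to 1.84 and Dusp1 from 0.09 to 1.06, while Fosl2 stays near -0.85.

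The make-up of the Fos family is clearest per length of transcript, where levels of different genes can be compared. The share of each gene in the summed CPM per kb of Fos, Fosb, Fosl1 and Fosl2 was computed per library. In new AML replicates 1, 2 and 4, Fosb made up 3.95%, 8.71% and 3.60% of this sum, in replicate 3 it made up 30.8%, and in aggressive AML it made up 25.1%, 27.1%, 19.6% and 13.5%. On this measure replicate 3 lay above all the aggressive libraries and the other new libraries lay below them. Fosl2 made up 51.5%, 36.0% and 48.4% in new AML replicates 1, 2 and 4, only 9.16% in replicate 3, and 27.7% ± 9.16 (SD, n = 4) in aggressive AML, with an overlap between replicate 2 of new AML and replicate 4 of aggressive AML. The share of Fos itself was 49.1% ± 5.33 (SD, n = 3) in new AML without replicate 3, 59.9% in replicate 3 and 48.2% ± 3.95 (SD, n = 4) in aggressive AML. Without replicate 3, the share of Fos thus differed between the groups by less than its SD. Fosb then took a larger and Fosl2 a smaller mean share in aggressive AML. With all 4 new AML libraries the mean shares there were 11.8% ± 12.9 (SD, n = 4) for Fosb and 36.3% ± 19.3 (SD, n = 4) for Fosl2. Both lay within that SD of the aggressive AML means (21.3% and 27.7%). The contrast with Fos therefore rests on leaving out a library chosen for its Fos and Fosb, and is a description. Shares sum to the whole, and a fall of Fosl2 by itself raises the others.

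The ratio of Fosb to Fos counts within a library needs no scaling. It was 0.159, 0.284 and 0.136 in new AML replicates 1, 2 and 4, 0.924 in replicate 3, and 0.888, 0.938, 0.815 and 0.513 in aggressive AML. Replicate 3 thus fell inside the range of aggressive AML in this ratio, although both genes were several times higher in it. The ratio of Dusp1 to Fos behaved otherwise, at 0.455, 0.267, 0.324 and 0.350 in new AML and at 0.682, 0.752, 1.07 and 0.698 in aggressive AML. There the groups did not overlap, and replicate 3 lay within its own group. The ratio of Fosl2 to Fos overlapped between the groups, at 0.474 to 3.59 in new AML and 1.04 to 2.44 in aggressive AML. How often ratios of other gene pairs separate the groups was not computed, and these ratios are descriptions.

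In the Jun family, Jund took 37.96% ± 2.02 (SD, n = 3) of the summed CPM per kb in new AML without replicate 3, 38.9% in replicate 3 and 45.2% ± 3.00 (SD, n = 4) in aggressive AML. The groups did not overlap in this share, whose highest new library was at 40.2% and lowest aggressive library at 42.1%. How often such shares of other genes separate the groups was not computed, and this is a description. Jun took 34.5% ± 4.23 (SD, n = 3), 44.2% and 31.1% ± 1.33 (SD, n = 4), and Junb took 27.5% ± 2.25 (SD, n = 3), 16.9% and 23.8% ± 2.77 (SD, n = 4). Ranges of Jun and Junb overlapped between the groups. The size of the Jund share depends on the transcript length used, 1668 bases, which is shorter than its RefSeq span. Jun overlaps the antisense gene Junos and Jund the antisense gene Gm11175, and since the strand setting of the counting was not stated, reads of these pairs cannot be told apart.

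**Figure D4:**
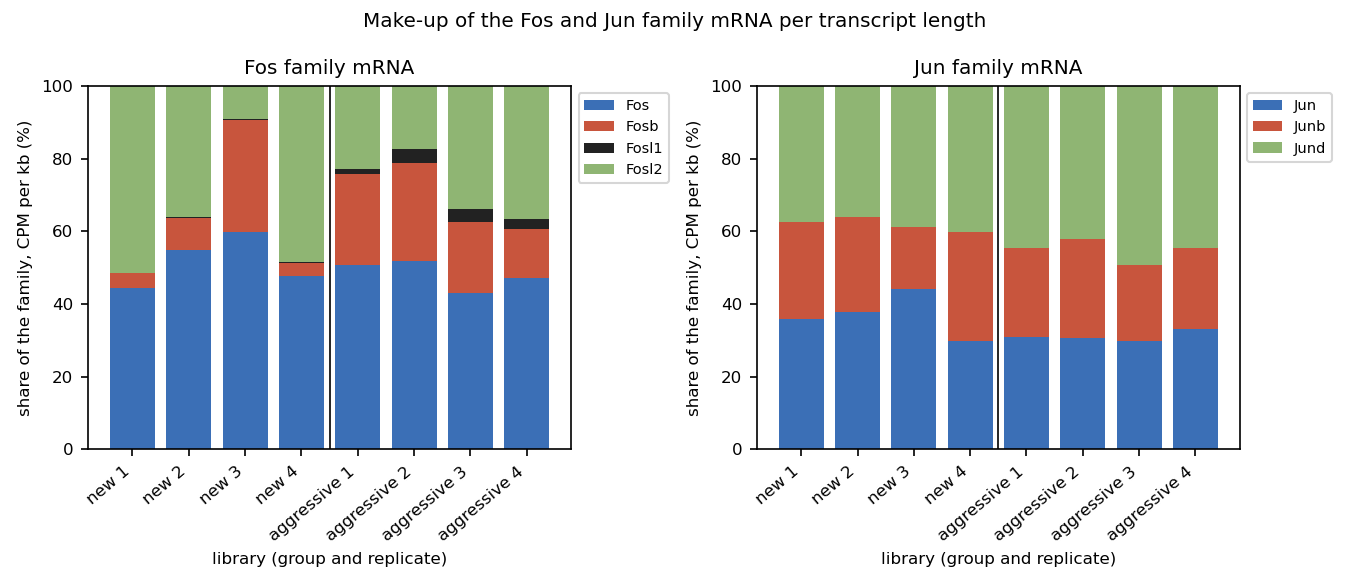
Share of each gene in the summed CPM per kb of the Fos family (left) and the Jun family (right), as stacked bars for the 8 libraries, with new AML left of the line. Fosb fills 30.8% of the Fos family in new AML replicate 3 and 3.60% to 8.71% in the other new AML libraries, against 13.5% to 27.1% in aggressive AML.

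Among all 10 genes per kb, Ier2 was the most abundant in aggressive AML (115 ± 26.1 CPM per kb, SD, n = 4), followed by Jund (77.7 ± 12.2), Jun (53.8 ± 10.1), Junb (41.8 ± 13.2), Fos (19.99 ± 7.87) and Dusp1 (16.3 ± 5.19). Fosl2 (10.4 ± 1.05), Fosb (9.20 ± 5.18), Egr1 (3.33 ± 1.48) and Atf3 (0.621 ± 0.0469) were lowest. Jun and Junb, Fos and Dusp1, and Fosl2 and Fosb differed by less than the larger SD of each pair. In new AML replicate 3 the order was led by Jun (139.5 CPM per kb), with Jund at 123, Ier2 at 118 and Fos at 109. The place of Jund in both orders depends on its gene model. Its level was scaled by a transcript of 1668 bases in 1 exon, while its RefSeq span is longer (chr8:70697739-70700616). A longer model would lower its level per kb.

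The genes around this pathway were read from lists written from general knowledge, with earlier results of these data known, and their counts stand beside 18.4% of all tested genes called, 8.15% higher and 10.2% lower. Of 14 tested AP-1 and related bZIP factors outside the 10, 2 were called higher and 2 lower in aggressive AML, and the median change was -0.04 on the log2 scale against 0.00 for all tested genes. Maff, a small Maf protein without a transactivation domain, was at 4.54 ± 1.15 CPM (SD, n = 4) in new and 10.3 ± 2.79 CPM (SD, n = 4) in aggressive AML (log2 fold change 1.19, adjusted p = 0.00336). Fosl1, the remaining Fos family member, had 0 to 3 counts in new AML and 10 to 34 counts in aggressive AML, a ratio of 9.76 per library size between 72 and 8 counts in all (exact 95% interval 4.70 to 23.5, counting error only). It passed the filter through aggressive AML alone, so its call, which is among the 2 higher ones, was not read. Fosl1 also overlaps Ccdc85b on the other strand. Bach2, a repressor that binds Maf-type sites, fell (-2.42, adjusted p = 7.08e-05), and so did Batf, which pairs with Jun proteins in leukocytes (-0.58, adjusted p = 0.0109).

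Other immediate early genes, 30 of which could be tested, included 7 called higher and 3 called lower, and their median change was 0.07 on the log2 scale. Those with the smallest adjusted p were Nfkbia, the inhibitor of NF-kB, which rose by 0.52 (adjusted p = 0.00437), the orphan nuclear receptor Nr4a1 (0.91, adjusted p = 0.00529) and the pseudokinase Trib1 (1.26, adjusted p = 0.0104). Nfkbiz, Ier3, Plk3 and Cxcl2 made up the rest of the higher calls. Klf4, a monocytic zinc finger factor, fell by 2.27 on the log2 scale (adjusted p = 0.000304), with 8.4 to 30.3 CPM in new AML and 2.5 to 5.1 CPM in aggressive AML. Btg2, an antiproliferative gene, fell by 0.74 (adjusted p = 0.00614). Ier5 fell by 0.59 (adjusted p = 0.0284) but was not called without new AML replicate 3 (adjusted p = 0.0858), when 7 genes were higher and 2 lower. New AML replicate 3 was the highest library for 10 of the 30. Klf2, at 192 CPM there against 37.5 to 69.0 CPM in the other new AML libraries and 47.8 to 117 CPM in aggressive AML, was not called (adjusted p = 0.957).

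Calls among the kinases and factors upstream of these genes were counted next. Of 21 genes of the ERK, JNK and p38 cascades, Map3k1, which acts ahead of JNK, was the one called, lower in aggressive AML (-0.42, adjusted p = 0.0302). Among 13 SRF, ternary complex and CREB factors, Elk3 was higher (0.50, adjusted p = 0.000657), while the SRF coactivator Mkl1 (-0.53, adjusted p = 0.00394) and Creb1 (-0.27, adjusted p = 0.0443) were lower. Without new AML replicate 3, Creb1 was not called (adjusted p = 0.0537), and Nab2, a corepressor of Egr proteins (1.16, adjusted p = 0.0397), and Ep300 (-0.30, adjusted p = 0.0210) were. Of 7 other MAP kinase phosphatases, Dusp7 was called and was lower (-0.53, adjusted p = 0.00644). Dusp2 (0.30, adjusted p = 0.145), Dusp5 (0.61, adjusted p = 0.0863) and Dusp6 (-0.02, adjusted p = 0.893) were not. Of 8 genes for the decay of immediate early products, the AU-rich element binder Hnrnpd was higher (0.24, adjusted p = 0.0425) with 8 libraries only, and the mRNA decay factor Zfp36, which is also in the previous list, was at 0.04 (adjusted p = 0.870).

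Genes long known to carry AP-1 sites moved both ways. Of 13 tested, Plaur, the urokinase receptor (0.64, adjusted p = 0.000959), the metallothionein Mt1 (0.39, adjusted p = 0.0213) and the secreted phosphoprotein Spp1 (0.84, adjusted p = 0.0254) were higher in aggressive AML. The protease Mmp9 (-3.46, adjusted p = 7.10e-05), which is also a gene of maturing neutrophils, and the heme oxygenase Hmox1 (-0.50, adjusted p = 0.0410) were lower. The median of the list was 0.19, and each of these 5 genes was called in the same direction without new AML replicate 3.

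**Figure D5:**
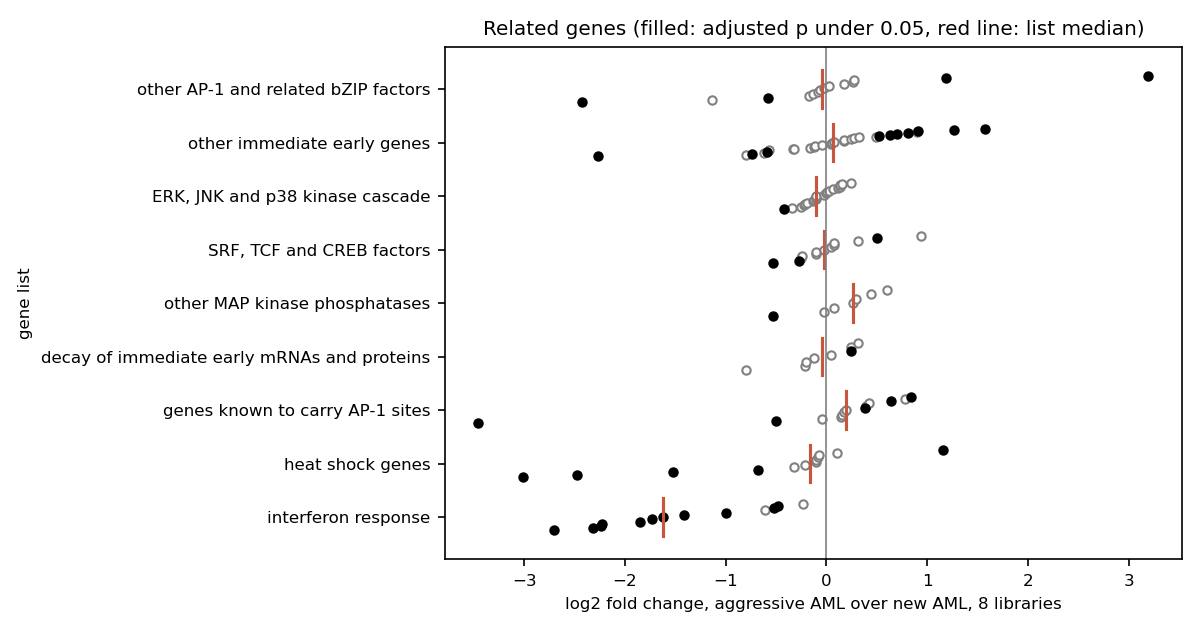
Log2 fold change of aggressive over new AML in 8 libraries for the tested genes of each related list (points), filled where adjusted p was under 0.05, with the list median as a red line. Genes of the kinase cascades lie between -0.42 and 0.24, and the interferon list lies furthest to the left, with a median of -1.62. The filled point of Fosl1, which passed the filter through aggressive AML alone, is not read as a call.

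Of the genes with a mean of at least 5 CPM (10305 genes), those most like Fos over the 8 libraries, by the root mean square difference of centred log2(CPM + 1), were Igtp (0.49), Jun (0.49), Klf2 (0.50), Serpina3g (0.53), Cfb (0.60), Klf6 (0.61), Dusp1 (0.64) and Tubd1 (0.64). For Jun they were Mrps6 (0.29), Jund (0.30), Klf6 (0.31), Nlrc5 (0.32) and Sdf2l1 (0.33). Igtp is an interferon-induced GTPase. The likeness is a description over 8 libraries and rests largely on new AML replicate 3, where Igtp was at 42.7 CPM against 10.5 to 21.7 CPM in the other 7.

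Other genes moved with new AML replicate 3. Those with the widest gap over the other 7 libraries were Gbp2, Tgtp1, Tgtp2, Serpina3g, Gbp5, Ly6a, Zbp1, Hspa1a, Gbp7 and Cfb, among them guanylate binding proteins and other genes induced by interferon. Gbp2 was at 47.6 CPM there, at 3.57 to 6.35 CPM in the other new AML libraries and at 1.21 to 4.55 CPM in aggressive AML. All 13 tested genes of the interferon list had this library highest. Their summed level was 768 CPM in it, 405 to 483 CPM in the other new AML libraries and 242 to 285 CPM in aggressive AML. Of these 13, 11 were lower in aggressive AML (8 without replicate 3), led by Ifitm3 (-2.23, adjusted p = 1.15e-05), Irf7 (-1.85, adjusted p = 7.08e-05) and Usp18 (-2.32, adjusted p = 0.000208). Unlike Fosb and Dusp1, this list was also higher in the other new AML libraries than in aggressive AML.

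Heat shock genes were highest in new AML replicate 3 for 8 of 12. The stress-induced chaperone Hspa1a was at 31.5 CPM in it and at 11.6, 6.90 and 2.45 CPM in new AML replicates 1, 2 and 4, against 1.94 to 2.77 CPM in aggressive AML. Of the 12, Hsph1 (-1.52, adjusted p = 4.05e-05), Hspa1b (-3.01, adjusted p = 0.000349), Hspa8 (-0.68, adjusted p = 0.00174) and Hspa1a (-2.48, adjusted p = 0.00663) were lower in aggressive AML, and Dnajb4 (1.16, adjusted p = 0.000850) was higher. The part of the interferon and heat shock genes in the levels of Fos, Fosb and the other members was not tested.

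Markers of other cells were read in the same way, although a sort for GFP would remove cells of the host. The 9 neutrophil markers summed to 321 to 486 CPM in new AML, with 417 CPM in replicate 3, and to 166 to 218 CPM in aggressive AML. Of these, 7 were lower in aggressive AML. Macrophage markers (4 of 9 listed names in the table) summed to 81.4 to 143 CPM in new AML, with the lowest sum in replicate 3, and to 55.6 to 90.3 CPM in aggressive AML, and Adgre1 was called lower. The absent name Emr1 is an older name of Adgre1. Erythroid markers (8 of 10 in the table) summed to 27.4 to 101 CPM in new AML, 96.7 CPM in replicate 3, and 10.02 to 53.6 CPM in aggressive AML, where 2 genes were lower. The T cell markers Cd3e and Cd8a, the B cell marker Ms4a1 and the NK cell marker Ncr1 had no row in the table, whose authors left out genes of low expression. Of the lymphoid markers that were tested, Lck (0.39, adjusted p = 0.307) and Cd79b (-0.18, adjusted p = 0.211) were not called, and Nkg7 was higher in aggressive AML (0.70, adjusted p = 0.0226). Among 9 genes of the leukemia itself, Kit (0.65, adjusted p = 0.00140) and Meis1 (0.45, adjusted p = 0.0117) were higher and Csf1r (-1.70, adjusted p = 3.76e-07), Itgam (-0.61, adjusted p = 0.00122) and Spi1 (-0.25, adjusted p = 0.0159) lower. The part of any of these cell states in the differences of the 10 genes was not tested.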

How the data were processed

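RNA of GFP+ cells was measured in 8 libraries, 4 of new AML and 4 of aggressive AML, grouped by the sample labels. The authors aligned paired-end reads to mm10 with HISAT2 on Galaxy, counted them per gene with Rsubread and removed genes of low expression. The annotation and strand setting are not given in the sources used here. Although its name says CPM, the deposited file holds whole-number counts whose totals differ between libraries, and they were tested as raw counts. No column was left unused.

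Rows that reached 1 CPM in 4 or more libraries were tested with the quasi-likelihood test of edgeR 4.0.16 (R 4.3.3), with TMM scaling, the group as the model and a Benjamini-Hochberg threshold of 0.05. The fit was run on the whole table, and was tested on simulated data. Alternatives were DESeq2 1.42.0, limma 3.58.1 (on log2(CPM + 1), and voom with quality weights), RLE scaling, no scaling, other filters, a replicate block and the omission of each library. CPM are scaled by the library total and TMM. CPM per kb use the longest principal GENCODE M21 transcript. For a gene at or under 3 counts in every library of a group, summed counts were compared as a ratio with an exact binomial interval.

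The members and lists were chosen with earlier results of these data known. Named besides the members were, per list, the called genes with the 3 smallest adjusted p in each direction, the 8 genes most like Fos, the 5 most like Jun, and the 10 with the widest gap in new AML replicate 3 among those of at least 10 CPM. Klf2, further marker genes, Dusp2, Dusp5, Dusp6, Zfp36, Hoxa9 and Mpo were named after their values were seen. Promoter windows are from RefSeq (GRCm38.p6), with 250 bases before the start.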

Additional observations from a re-analysis of the deposited data

Results flagged for a closer look

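In the group of 4 new AML libraries, replicate 3 was far from the other 3 for Fosb (213 CPM, a gap to the next library of 0.934 of the whole range), for Atf3 (2.45 CPM, 0.892 of the range, from 1 to 22 counts) and for Dusp1 (74.7 CPM, 0.945 of the range). These gaps are over Dixon's critical value for 4 samples, which chance passes in about 1 in 20 groups and which 5.37% of all tested genes passed in new AML and 6.27% in aggressive AML. Since the library had been singled out for Fos and Fosb, the gaps describe again the height that chose it, and they are no independent test of it.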

How the results depend on the processing

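Fosl2 kept its direction and its call in all 16 alternatives, and Ier2 kept its direction and was not called in any. The number of called members, 1 with 8 libraries, was 2 under voom with quality weights, where Atf3 joined, and 1 to 5 when 1 library was left out, counts that include Fos (without new AML replicate 1) and Fosb and Atf3 (without new AML replicate 3), from which nothing is read. Over those omissions the number of called genes ranged from 1534 to 2381. Fosb turned to 1.14 under voom with quality weights, 0.63 under limma on log2(CPM + 1) and 0.71 with a replicate block, and Junb to 0.010 under voom with quality weights. With 1 library left out, log2 fold changes ranged from -1.19 to 1.84 for Fosb, -0.14 to 1.06 for Dusp1, -0.32 to 0.20 for Egr1, -0.71 to 0.012 for Jun, -0.30 to 0.032 for Junb and -0.081 to 0.43 for Jund. The cause of these changes was not tested. Replicate numbers were not taken to pair the samples, since the labels do not say that they do. The correlations of same-numbered deviations were 0.0967, -0.0399, -0.0654 and 0.204, which cannot decide whether the samples were paired. With the replicate block 2367 genes were called and 1 member, Fosl2. The filter of 10 CPM left out Atf3. Among the related lists, the calls of other immediate early genes fell from 10 to 6 with the filter of 10 CPM, without aggressive AML replicate 2 or without new AML replicate 2, and those of the interferon list from 11 to 6 and of the heat shock list from 5 to 3 with that filter. Genes with AP-1 sites had 5 calls, and 2 to 5 with 1 library left out (2 without new AML replicate 2, 3 without new AML replicate 1 or 4 or aggressive AML replicate 1 or 2). The other lists of 1 to 4 calls moved by up to 3 calls, and that of SRF and CREB factors reached 5 under voom with quality weights. Depth limits Atf3 and Fosl1, where 1 count is worth 0.103 to 0.128 CPM.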
